A study of Mus musculus with 7 samples.

Results

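Heat shock proteins and DnaJ proteins were followed at the transcript level in dorsal root ganglia of the mouse, where the cell bodies of sensory neurons lie, after injury of the sciatic nerve. Genes were taken as members when their symbol belonged to the Hspa, Hspb, Hspd, Hspe, Hsph, Hsp90, Dnaja, Dnajb or Dnajc series, and 70 of 54309 genes met this rule, which used no measured value. The animals were C57bl/6 mice labelled male and 6 to 8 weeks old, with no genetic change given. Tissue was collected 72 h after the injury at ZT20 in 4 samples and at ZT8 in 3, Zeitgeber time (ZT) being the hours since the lights went on. All 7 samples were injured, so no value speaks of the change caused by injury, and the times of injury and dissection cannot be told apart. Every sample was digested with Dispase, collagenase and papain and spun through albumin, a step that enriches neurons, before RNA was taken, and this handling is shared by both groups. Library identifiers were numbers at ZT20 and letters at ZT8, and any batch behind them and the group cannot be told apart.

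Chaperones bind unfolded or aggregating proteins and help them fold, move between compartments or reach the proteasome. HSP70 proteins (Hspa genes) cycle between loose and tight grip on a client as they bind and split ATP. DnaJ proteins (Dnaja, Dnajb and Dnajc genes) deliver clients and trigger the ATP step through their J domain, and HSP110 proteins (Hsph genes) release the spent nucleotide. HSP90 proteins act later on signalling proteins such as kinases and hormone receptors, small heat shock proteins (Hspb genes) hold unfolding proteins in solution, and the Hspd1 and Hspe1 chaperonin folds proteins in a closed cage within mitochondria. In neurons the family is known for guarding long-lived proteins, for stripping clathrin from endocytic vesicles and for keeping synaptic vesicle proteins folded. Hspb1 is a long known injury-induced protein of sensory neurons.

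Chaperone transcripts were abundant at both times. Values are in TPM, a measure of transcripts corrected for their length and made to add up to the same sum in each sample. The 70 genes together held 14599, 14472, 14483 and 15118 TPM in ZT20 replicates 1 to 4 and 14108, 11907 and 16488 TPM in ZT8 replicates 1 to 3, that is 1.19% to 1.65% of all transcripts. The ZT20 samples lay close together inside the wider range of the ZT8 samples. By mean TPM over all samples 19 members exceeded 100 TPM, and the median member stood at 39.7 TPM. HSP70 genes made up 41.8% of the summed level, HSP90 genes 21.7%, small heat shock proteins 14.3%, DNAJC 9.39%, DNAJB 4.87%, DNAJA 3.85%, the mitochondrial chaperonin 3.01% and HSP110 0.996%. The levels were carried by few genes. Hspa8 ranked 11 among all genes of the table, Hsp90ab1 43 and Hspb1 56.

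**Figure D1:**
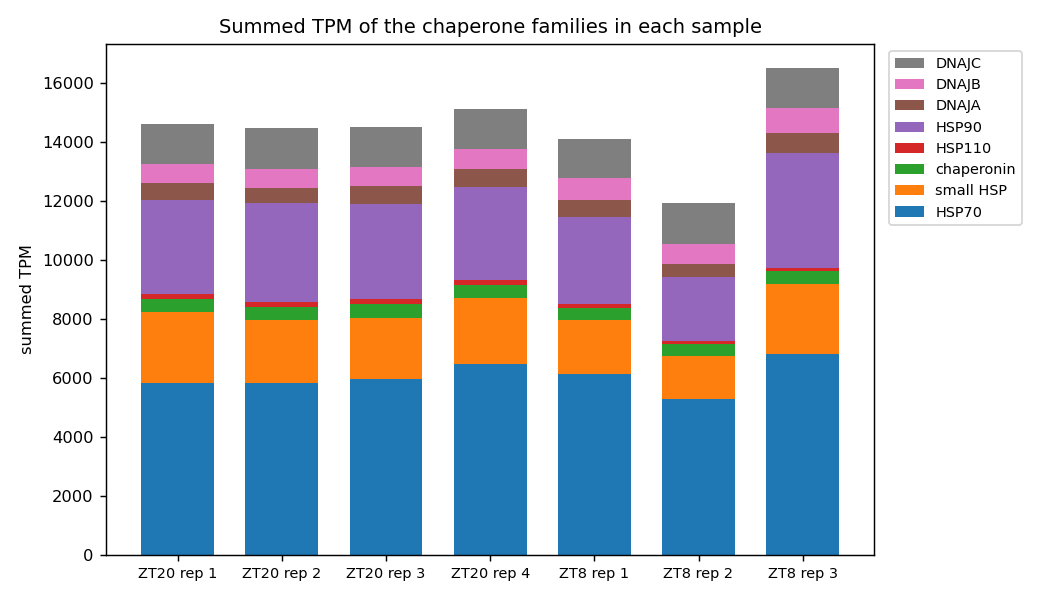
Summed abundance in TPM (y axis) of the chaperone families, stacked in 1 bar per sample for the 4 ZT20 and 3 ZT8 samples, with 1 colour per family. The ZT20 bars reach 14472 to 15118 TPM, while ZT8 replicate 2 has the lowest bar (11907 TPM) and ZT8 replicate 3 the highest (16488 TPM), with HSP90 running from 2194 to 3897.1 TPM at ZT8.

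The comparison asks which chaperones differ with the clock time of injury and dissection. Of the 70 members, 62 averaged 1 TPM or more across the 7 samples and were tested on log2(TPM + 1) with limma, fitted over all 14800 genes that passed the same filter. At a Benjamini-Hochberg adjusted p under 0.05, 8 of the 62 changed (12.9%), against 16.4% of all tested genes. The higher calls at ZT20 were 4 members, Dnajc6, Dnajc13, Dnajc27 and Hsph1 (6.45%, against 12.8% of all tested genes), and the lower calls were 4, Hspa1a, Dnajb6, Dnajc12 and Dnajc15 (6.45%, against 3.61%). Group ranges did not overlap for 20 members (32.3%, against 33.2% of all tested genes), with 12 higher at ZT20 (19.4%, against 24.5%) and 8 lower (12.9%, against 8.72%). As a set the chaperones thus differed between the times about as often as other genes. The median log2 difference, ZT20 minus ZT8, was 0.19 over the members and 0.23 over all tested genes, with 41 members positive and 21 negative.

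The sign of small differences depended on how samples were scaled. Median-ratio scaling moved the median of all genes to 0.019 and that of the members to −0.047. The member calls became 1 higher (Dnajc6) and 9 lower, Hspb8, Dnajb9, Dnajb11, Dnajc9 and Dnajc19 beside the 4 named above. Over all 14800 tested genes the same scaling called 1088 higher and 1254 lower, where TPM gave 1899 and 534. The share of all called genes that were higher at ZT20 was 78.1% in TPM, 46.5% with median-ratio scaling, 57.2% with quantile normalization and 40.9% after a correction for transcript length and GC content, which removes the trend with both in each sample. The log2 difference also followed the length of the longest annotated transcript. The Spearman rho was 0.41 over the 62 members and 0.41 over 14745 genes with a known length. These points share the 7 libraries, and the relation is a description. None of the 8 called members changed sign in any of the 18 alternatives.

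**Figure D2:**
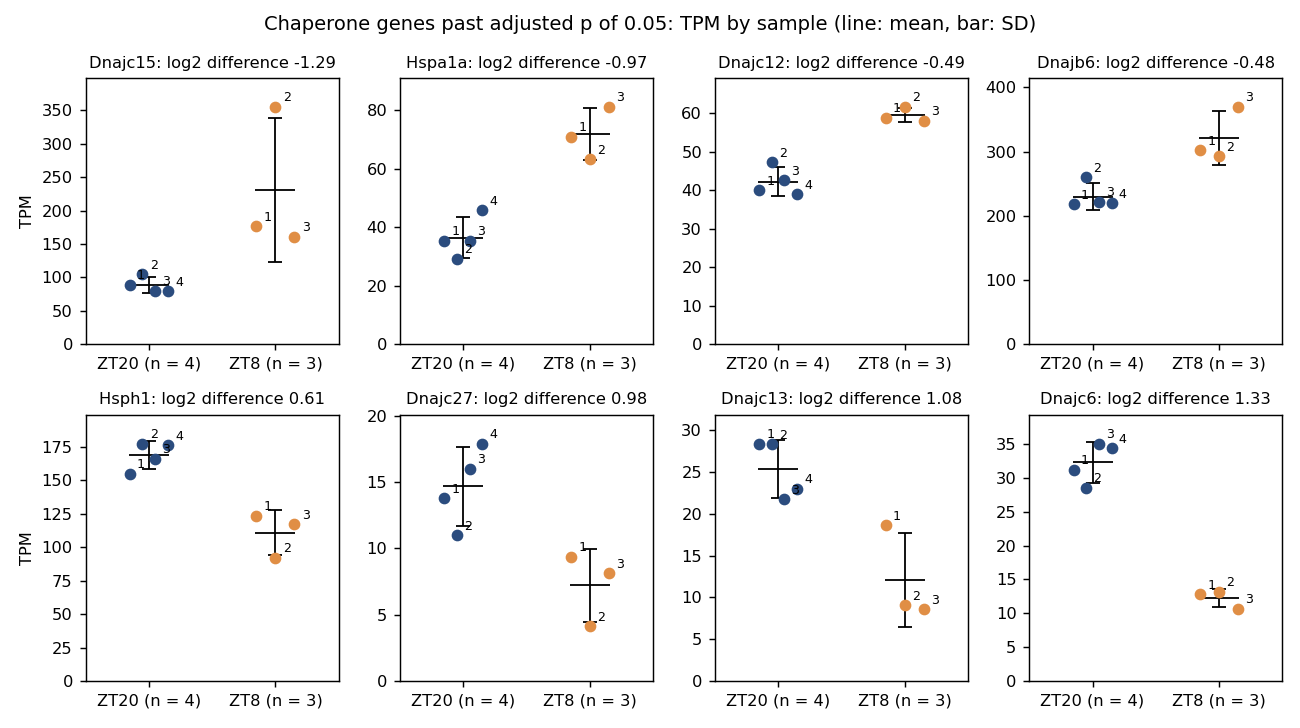
Abundance in TPM (y axis from 0) of the 8 called chaperone genes, 1 point per sample labelled by replicate number, with the group mean (line) and SD (bar), at ZT20 (n = 4, blue) and ZT8 (n = 3, orange). In all 8 panels the ranges are separate, and Dnajc15 at ZT8 spreads from 161 to 355 TPM.

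Sample quality bears on these counts in several ways. The labels do not say whether the samples came from separate animals, so p-values measure only the spread between these samples, which may be technical. ZT20 replicates 3 and 4 went against their male label. Their summed Y-linked level over 4 genes was 0.0162 and 0.00868 TPM against 33.1 to 84.6 TPM elsewhere, and Xist was 2.21 and 2.30 TPM. ZT20 replicate 2 held both, with 33.1 TPM of Y-linked transcripts and 1.08 TPM of Xist. Without replicates 3 and 4, a check added after the data were seen, limma called 0 of 14800 genes (2425 at an unadjusted p under 0.05) and so 0 members (8 at an unadjusted p under 0.05). The 8 members called with all samples kept their signs there, with adjusted p from 0.116 (Hspa1a) to 0.381 (Dnajc27).

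ZT8 replicate 2 stood apart, with 18297 genes above 0 TPM against 22541 to 25238 in the others. It was the lowest of the 7 samples in 34 of the 62 tested members (54.8%, against 40.2% of all tested genes). Without it, the differences of several uncalled genes given later were smaller by over 1.5 times, among them Hspd1 (0.15), Dnaja2 (0.063), Dnajb2 (0.24), Dnajb12 (0.27), Dnajc7 (0.19), Dnajc10 (0.28), Dnajc11 (0.16) and Dnajc1 (−0.27), and Dnajc30 stood at −0.037. ZT8 replicate 3 was the highest in 18 (29.0%, against 11.7%). The spread was accordingly wider at ZT8. The median coefficient of variation of the members was 9.80% at ZT20 and 21% at ZT8, and it was larger at ZT8 in 50 of 62; over all tested genes it was 16.1% and 29.0%.

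Markers of some other cell types differed between the groups. All 12 neuronal markers were tested, and their summed level was 19025 to 23878 TPM at ZT20 and 14973 to 22266 TPM at ZT8, with overlap. Only Scn9a and Scn10a were called, both higher at ZT20. Of the 12 differences 10 were positive and 2 negative, Uchl1 (−0.096) and Isl1 (−0.041). The 8 satellite glia markers summed to 7644.5 to 9334 TPM at ZT20 and 12904 to 15728 TPM at ZT8, without overlap. Most of that sum was Apoe (6261 to 7615 TPM at ZT20, 10623 to 13557 TPM at ZT8). Of these 8 markers 3 were called lower, Apoe and Fabp7 among them, 5 were not called, and Kcnj10 (0.21) and Cdh19 (0.38) had positive differences. Of the other lists, 0 of 7 Schwann cell markers, 1 of 8 macrophage markers (C1qa, lower) and 1 of 5 plasma cell markers (Mzb1, lower) were called, and the summed ranges were separate for plasma cells (267.3 to 485.52 TPM at ZT20, 496.21 to 935.37 TPM at ZT8) and overlapped for Schwann cells (1126.8 to 1260.7 and 909.63 to 1308.6 TPM) and macrophages (331.68 to 674.78 and 364.37 to 832.78 TPM). Erythroid markers summed to 2369.5 to 6679.4 TPM at ZT20 and to 1603.3, 9534.4 and 951.16 TPM in ZT8 replicates 1 to 3, and fibroblast markers to 77.653 to 108.33 TPM and 99.601, 196.53 and 83.986 TPM, so ZT8 replicate 2 was the highest of all samples in both. Endothelium and mural cell markers summed to 78.635 to 107.73 TPM at ZT20 and 47.539 to 84.724 TPM at ZT8. No gene of these 3 lists was called, and no gene of any of the 8 lists was at 0 in all samples. Of 12 early response genes of dissociation, Junb and Ier2 were lower at ZT20, and the list summed to 1160.8 to 1728.2 TPM at ZT20 and 1498.5 to 2096.4 TPM at ZT8. With the neuronal minus non-neuronal marker score as a covariate, 1 member was called, Dnajc6. In bulk samples, fewer cells of a type and less RNA per cell cannot be told apart, and the part of the mixture in each result below was not tested beyond that fit.

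Promoter sequence was available from RefSeq (GRCm38.p6) for 57 of the 70 members, as windows from 250 bases before to 50 after the gene start. No window was available for Hspa8, Hspa9, Hspa13, Hsp90aa1, Hsp90ab1, Hspb2, Dnajc2, Dnajc5, Dnajc11, Dnajc12, Dnajc18, Dnajc22 or Dnajc30. These genes, the called Dnajc12 among them, were not searched for any element. The heat shock element is the inverted repeat bound by the heat shock factor Hsf1. The strict form with 3 units (GAA, any 2 bases, TTC, any 2 bases and GAA again, or its complement) was found in 4 of the 57 genes (7.02%), Dnajb6, Hsph1, Hspd1 and Hspe1, against 0.662% of all 27025 genes with such a window. The looser form with 2 units (GAANNTTC or TTCNNGAA), which the strict form contains, was found in 15 (26.3%), against 17.0%. The ER stress element (CCAAT, any 9 bases and CCACG, on either strand) was found in 3 (5.26%), Hspa5, Hsp90b1 and Dnajc3, against 0.137%, and the E-box CACGTG, the site of the clock factors, in 6 (10.5%), Dnajb9, Dnajc1, Dnajc8, Dnajc16, Hspd1 and Hsph1, against 8.09%. Matches are descriptions of letters in a window, and no binding was measured. The stretches below, each 5′ to 3′ on the strand of the gene, are chosen examples from called and uncalled members. Whether an element goes with a call was not tested. Capitals mark the element.
Hspe1, chr1:55088053-55088082, plus strand, with 2 overlapping matches in the stretch shared with Hspd1: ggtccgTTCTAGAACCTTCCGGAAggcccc
Dnajb6, chr5:29735846-29735870, plus strand: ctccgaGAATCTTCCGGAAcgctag
Hsph1, chr5:149636287-149636306, minus strand, after the gene start: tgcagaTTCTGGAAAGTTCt
Hspa1a, chr17:34972242-34972271, minus strand, the form with 2 units: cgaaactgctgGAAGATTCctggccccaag
Hspa1b, chr17:34959324-34959353, minus strand, the same 30 bases: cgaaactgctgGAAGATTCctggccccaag
Hspa5, chr2:34772020-34772048, plus strand, the ER stress element: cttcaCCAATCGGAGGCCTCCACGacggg
Dnajc3, chr14:118937822-118937850, plus strand, the ER stress element: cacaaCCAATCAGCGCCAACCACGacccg
Of the genes whose stretches are printed, Dnajb6 and Hspa1a were lower at ZT20 and Hsph1 higher, and Hspe1, Hspa5 and Dnajc3 did not pass the test. Among the genes not printed, Dnajc27, which was higher at ZT20, holds the form with 2 units.

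Within the HSP70 family 1 of 11 tested genes changed (9.09%, against 16.4% of all tested genes). Hspa1a (ENSMUSG00000091971), the classic stress-inducible HSP70, stood at 35.5, 29.2, 35.4 and 45.9 TPM in ZT20 replicates 1 to 4 and at 71.0, 63.4 and 81.2 TPM in ZT8 replicates 1 to 3. Every ZT8 sample was above every ZT20 sample. The means were 36.5 ± 6.91 TPM (SD, n = 4) and 71.9 ± 8.95 TPM (SD, n = 3). The log2 difference was −0.97 (SE 0.17, 95% interval −1.36 to −0.58), with a limma adjusted p of 0.0108. Hspa1a stayed called in all 7 fits that left out 1 sample (adjusted p 0.0101 to 0.0470), and missed the threshold with the marker score as covariate (−1.10, adjusted p 0.106).

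Hspa1a has a near copy, and its value is uncertain to that extent. The coding sequence of Hspa1b differs from that of Hspa1a at 11 of 1926 aligned positions (99.4% identical), so reads between them may be split by the counting. Hspa1b was listed at 0.184 to 0.955 TPM at ZT20 and 0.422 to 1.05 TPM at ZT8, or 0.516% to 2.62% of the sum of both. The sum was 36.4, 29.8, 35.6 and 46.2 TPM at ZT20 and 72.0, 64.4 and 81.7 TPM at ZT8, so the groups stayed separate whichever gene the reads belong to. The third gene of this cluster, Hspa1l, a testis-expressed HSP70, averaged under 1 TPM and was not tested, at 0.913, 1.10, 0.663 and 0.556 TPM at ZT20 and 0.0996, 0 and 0.0390 TPM at ZT8. Without the filter on low values it was tested and called higher at ZT20. Hspa1a also overlaps an exon of Gm20481 on the opposite strand in GENCODE M21, and strand use in the counting is not given in the sources used here.

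The constitutive HSP70 genes held most of the level and did not pass the test. Hspa8, the cytosolic HSP70 that also uncoats clathrin vesicles, stood at 4626, 4588, 4594 and 4961 TPM at ZT20 and at 4892, 4161 and 5584 TPM at ZT8. The ZT20 values lay within the ZT8 range, and the log2 difference was −0.047 (95% interval −0.33 to 0.23, adjusted p 0.811). Hspa5, the HSP70 of the endoplasmic reticulum (BiP), was 633, 739, 735 and 840 TPM at ZT20 and 698, 677 and 734 TPM at ZT8, with overlapping ranges and a log2 difference of 0.061 (95% interval −0.20 to 0.33). Hspa9, the mitochondrial HSP70 that pulls proteins through the inner membrane, was 128 to 145 TPM at ZT20 and 114 to 134 TPM at ZT8, a log2 difference of 0.14 (95% interval −0.12 to 0.39).

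Some other HSP70 genes had higher means at ZT20 without a call. Hspa4l, an HSP110-like nucleotide exchange factor named here after its values were seen, was 109, 94.6, 136 and 138 TPM at ZT20 and 89.7, 63.3 and 87.6 TPM at ZT8. Its ranges did not overlap, and the log2 difference was 0.57 (95% interval 0.15 to 0.99, adjusted p 0.0672). Hspa12a, a distant family member of the brain, was 149, 108, 171 and 179 TPM at ZT20 and 130, 79.5 and 88.0 TPM at ZT8, a log2 difference of 0.62 (adjusted p 0.0880), with overlap through ZT8 replicate 1. It passed the test without ZT20 replicate 2 (0.77) and without ZT8 replicate 1 (0.83). Corrected for length and GC content, Hspa12a stood at 0.055 (adjusted p 0.859). Hspa13, a microsomal HSP70, was 10.7 to 13.1 TPM at ZT20 and 9.02 to 10.3 TPM at ZT8 (log2 difference 0.26, adjusted p 0.280). The family median was 0.14.

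The single gene with an Hsph symbol was called higher at ZT20. Neither Hspa4 nor the HSP110-like Hspa4l, both counted here with the Hspa genes, was called. Hsph1 (ENSMUSG00000029657), the HSP110 that releases nucleotide from HSP70 and helps it dissolve aggregates, was 155, 178, 166 and 176 TPM at ZT20 and 124, 92.2 and 117 TPM at ZT8. All ZT20 samples were above all ZT8 samples. The means were 169 ± 10.5 TPM (SD, n = 4) and 111 ± 16.6 TPM (SD, n = 3). On the log2 scale the difference was 0.61 (SE 0.13, 95% interval 0.31 to 0.91, adjusted p 0.0196). The call was lost without ZT20 replicate 3 or 4 (adjusted p up to 0.0661). It was also lost with median-ratio scaling (0.36, adjusted p 0.0721) and after the correction for transcript length and GC content (0.16, adjusted p 0.367). Hsph1 and Hspa1a, both stress-inducible, thus had opposite signs in the same samples.

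Of the 3 HSP90 genes limma called 0, with 0 at an unadjusted p under 0.05. Over all 14800 tested genes 16.4% were called and 5122 had an unadjusted p under 0.05. ZT8 replicates 2 and 3 marked the ends of the range of Hsp90ab1 and Hsp90aa1. Hsp90ab1, the constitutive cytosolic form, was 1936, 2074, 2066 and 2056 TPM at ZT20 and 1905, 1339 and 2407 TPM at ZT8. Hsp90aa1, the inducible cytosolic form, was 1096, 1113, 980 and 923 TPM at ZT20 and 900, 770 and 1326 TPM at ZT8. In both genes the ZT20 samples lay inside the ZT8 range. The log2 differences were 0.15 (95% interval −0.26 to 0.56, adjusted p 0.582) and 0.076 (95% interval −0.34 to 0.49, adjusted p 0.791), and both turned negative with median-ratio scaling (−0.10 and −0.17). Hsp90b1, the HSP90 of the endoplasmic reticulum (GRP94), was 164, 176, 185 and 171 TPM at ZT20 and 155, 85.8 and 164 TPM at ZT8, a log2 difference of 0.42 (adjusted p 0.198) that was 0.12 without ZT8 replicate 2.

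Among the small heat shock proteins 5 of 8 genes were tested and limma called 0, with 1 (Hspb8) at an unadjusted p under 0.05. The shares over all tested genes were 16.4% called and 5122 of 14800 under that unadjusted p. Hspb1 (HSP27), which binds actin and intermediate filaments and supports survival of injured sensory neurons, stood at 2028, 1752, 1707 and 1878 TPM at ZT20. At ZT8 it was 1378, 966 and 1888 TPM. ZT8 replicate 3 lay among the ZT20 samples and the other ZT8 samples below them. The log2 difference was 0.43 (95% interval −0.03 to 0.90, adjusted p 0.169), and it was −0.021 with the marker score as covariate. Without ZT8 replicate 2 it was 0.19, and without ZT8 replicate 3 it was 0.67 and passed the test (adjusted p 0.0417). Hspb8, which works with Bag3 in selective autophagy, was 314, 331, 310 and 315 TPM at ZT20 and 372, 412 and 388 TPM at ZT8, without overlap. Its log2 difference was −0.30 (95% interval −0.51 to −0.08, adjusted p 0.0636). Hspb11, an intraflagellar transport protein, was 30.8 to 35.3 TPM at ZT20 and 27.3 to 48.8 TPM at ZT8. The 3 untested genes, Hspb3, Hspb7 and Hspb9, were at 0 to 1.91 TPM.

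The mitochondrial chaperonin did not pass the test in either subunit, and the point estimates differed in sign. Hspd1 (HSP60), the cage, was 270, 243, 283 and 278 TPM at ZT20 and 220, 162 and 264 TPM at ZT8. Hspe1 (HSP10), its lid, was 177, 195, 175 and 155 TPM at ZT20 and 192, 244 and 183 TPM at ZT8. Both ranges overlapped. The log2 differences were 0.34 (95% interval −0.03 to 0.72, adjusted p 0.174) and −0.23 (95% interval −0.54 to 0.08, adjusted p 0.269). Without ZT8 replicate 2 both were smaller, 0.15 and −0.10. The pair is transcribed in opposite directions from a shared start region, which the stretch of Hspe1 printed above lies in, and their annotated exons overlap.

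**Figure D3:**
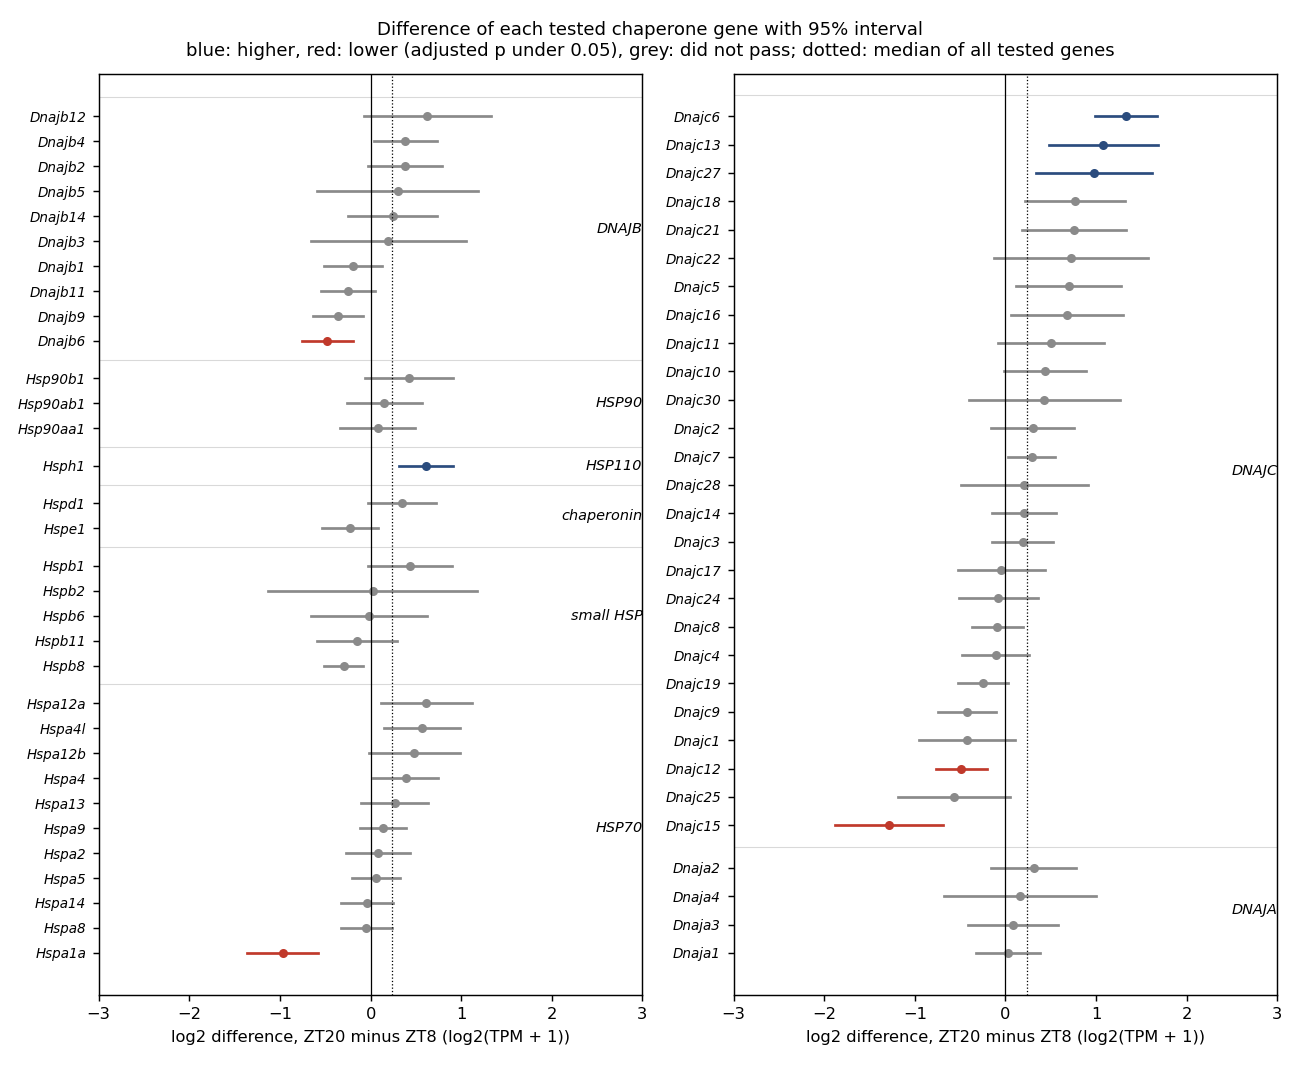
Difference ZT20 minus ZT8 on the log2(TPM + 1) scale (x axis) with its 95% interval for the 62 tested chaperone genes by family, from limma over 4 ZT20 and 3 ZT8 samples; blue marks genes called higher, red lower, grey not called, and the dotted line the median of all tested genes (0.23). Dnajc6 (1.33) and Dnajc15 (−1.29) lie farthest from 0, and the intervals of Hspa8, Hspa5 and Hsp90aa1 span 0.

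The general partners of HSP70, the DNAJA genes, did not pass the test in any of 4 cases, with 0 at an unadjusted p under 0.05. By comparison, 16.4% of all tested genes were called and 5122 of 14800 were under that unadjusted p. Dnaja1, a farnesylated cytosolic J protein, was 428, 353, 428 and 428 TPM at ZT20 and 410, 320 and 488 TPM at ZT8 (log2 difference 0.029, 95% interval −0.33 to 0.38). Dnaja2, its cytosolic relative, was 59.1 to 73.9 TPM at ZT20 and 37.2 to 69.7 TPM at ZT8 (0.31, adjusted p 0.312). Dnaja3, the mitochondrial J protein Tid1, was 63.3 to 83.8 TPM at ZT20 and 46.4 to 84.9 TPM at ZT8 (0.085, adjusted p 0.806). All 3 overlapped between the times.

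Of 10 tested DNAJB genes 1 was lower at ZT20 and 0 were higher (10% called, against 16.4% of all tested genes). Dnajb6 (ENSMUSG00000029131), which holds back the aggregation of polyglutamine and other amyloid-prone proteins, was 218, 260, 222 and 219 TPM at ZT20 and 302, 293 and 370 TPM at ZT8. The ZT8 samples were all above ZT20 replicate 2, the highest ZT20 sample. The means were 230 ± 20.4 TPM (SD, n = 4) and 321 ± 42.0 TPM (SD, n = 3). On the log2 scale the difference was −0.48 (SE 0.13, 95% interval −0.76 to −0.19, adjusted p 0.0355). The call held in 2 of 7 fits without 1 sample: it was lost without ZT20 replicate 1, 3 or 4 and without ZT8 replicate 1 or 3 (adjusted p up to 0.107). Exons of Dnajb6 overlap Gm5129 on the opposite strand in GENCODE M21.

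The other DNAJB genes included the canonical stress partner and the J proteins of the endoplasmic reticulum. Dnajb1 (HSP40), the inducible partner of Hspa1a, was 116, 145, 131 and 154 TPM at ZT20 and 152, 140 and 177 TPM at ZT8, with overlap (log2 difference −0.20, 95% interval −0.51 to 0.12, adjusted p 0.347). Dnajb9 (ERdj4), which keeps the stress sensor Ire1 bound to BiP, was 44.9, 43.9, 49.1 and 49.9 TPM at ZT20 and 58.9, 56.9 and 65.6 TPM at ZT8. It did not overlap but missed the threshold in TPM (−0.36, adjusted p 0.0750). Dnajb11 (ERdj3), a BiP partner that binds unfolded clients, was 64.3 to 74.8 TPM at ZT20 and 73.1 to 93.5 TPM at ZT8 (−0.25, adjusted p 0.208). Both Dnajb9 and Dnajb11 were called lower with median-ratio scaling. Dnajb9 was also called with quantile normalization (−0.47), with array weights and without ZT8 replicate 2 (−0.40). Dnajb2, a neuron-enriched J protein that hands clients to the proteasome, was 67.3 to 99.7 TPM at ZT20 and 55.1 to 80.3 TPM at ZT8 (0.38, adjusted p 0.173). Its difference was 0.13 with median-ratio scaling and 0.066 when corrected for length and GC content. Dnajb4 was 35.6 to 45.1 TPM at ZT20 and 27.7 to 37.1 TPM at ZT8 (0.38, adjusted p 0.116).

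The DNAJC genes, J proteins with specialised sites of action, made up 26 of the 62 tested members and held 5 of the 8 calls, 3 higher and 2 lower at ZT20 (19.2% of the family, against 16.4% of all tested genes). Their summed level was nearly level between the times, 1328.3 to 1385.1 TPM at ZT20 and 1334.1 to 1381 TPM at ZT8, and the called genes were of both directions. The family median was 0.25.

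Among the genes called higher, Dnajc6 kept its call in most alternatives. Dnajc6 (ENSMUSG00000028528) encodes auxilin, the neuronal J protein that recruits Hspa8 to clathrin coats so that synaptic vesicles can shed them. It stood at 31.2, 28.6, 35.1 and 34.4 TPM at ZT20 and at 12.8, 13.2 and 10.7 TPM at ZT8. The lowest ZT20 sample was above the highest ZT8 sample by more than the spread within either group. The means were 32.3 ± 3.0 TPM (SD, n = 4) and 12.2 ± 1.35 TPM (SD, n = 3). The log2 difference was 1.33 (SE 0.15, 95% interval 0.99 to 1.68, adjusted p 0.00307). It was called in 17 of the 18 alternatives, all 7 fits without 1 sample among them (adjusted p 0.00346 to 0.0219). The exception was the fit without ZT20 replicates 3 and 4 (1.23, adjusted p 0.131). With the marker score as covariate the difference was 1.45 (adjusted p 0.0484), and after correction for length and GC content 0.83 (adjusted p 0.0158).

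Dnajc13 and Dnajc27 were higher at ZT20 with less stable calls. Dnajc13 (ENSMUSG00000032560), the RME-8 protein that sorts cargo on endosomes, was 28.4, 28.4, 21.8 and 23.0 TPM at ZT20 and 18.6, 9.09 and 8.57 TPM at ZT8. ZT8 replicate 1 came close to the ZT20 samples and the other ZT8 samples were far below. On the log2 scale the difference was 1.08 (SE 0.27, 95% interval 0.48 to 1.69, adjusted p 0.0288). Dnajc27 (ENSMUSG00000020657), a J protein built on a small GTPase, was 13.8, 11.0, 16.0 and 17.9 TPM at ZT20 and 9.36, 4.13 and 8.10 TPM at ZT8. The gap between its groups was narrow, with a log2 difference of 0.98 (SE 0.28, 95% interval 0.34 to 1.61, adjusted p 0.0471). Each was called in 1 of the 7 fits without 1 sample, that without ZT8 replicate 1, and lost in the other 6 (adjusted p up to 0.0787 for Dnajc13 and 0.134 for Dnajc27). Exons of Dnajc13 overlap Gm37563 on the opposite strand.

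The called genes differed in the length of their longest annotated transcript, which need not be the one expressed. Dnajc13 has 8012 nt (percentile 95.1 of the tested genes), Dnajc6 5322 nt (82.9), Hsph1 4764 nt (77.5) and Dnajc27 4698 nt (76.6). Of the genes called lower, Dnajc15 has 6193 nt (88.5), Dnajc12 3025 nt (48.3), Hspa1a 2967 nt (47.0) and Dnajb6 2918 nt (46.0). After the correction for length and GC content, Dnajc13 stood at 0.44 (adjusted p 0.306) and Dnajc27 at 0.52 (adjusted p 0.177), and Dnajc6 was the only one of the 4 higher genes still called. The 4 lower genes stayed called, Dnajc15 at −1.83 (adjusted p 0.0133).

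The lower calls of the family were Dnajc15 and Dnajc12. Dnajc15 (ENSMUSG00000022013) encodes MCJ, a J protein of the inner mitochondrial membrane that restrains respiratory complex I. It was 88.9, 105, 80.2 and 79.6 TPM at ZT20 and 176, 355 and 161 TPM at ZT8. All ZT8 samples were higher, and ZT8 replicate 2 was far above the other ZT8 samples, in contrast to its low place among most chaperones. The log2 difference was −1.29 (SE 0.26, 95% interval −1.88 to −0.69, adjusted p 0.0158), and −0.93 (adjusted p 0.00681) without ZT8 replicate 2. The call was lost without ZT20 replicate 3 or 4 (adjusted p up to 0.0586). With the marker score as covariate it was −0.85 (adjusted p 0.297).

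Dnajc12 (ENSMUSG00000036764), the co-chaperone of the aromatic amino acid hydroxylases that start monoamine synthesis, was 40.1, 47.3, 42.6 and 39.0 TPM at ZT20 and 58.8, 61.6 and 58.0 TPM at ZT8. Both groups were tight and separate, with means of 42.2 ± 3.73 TPM (SD, n = 4) and 59.5 ± 1.90 TPM (SD, n = 3). The log2 difference was −0.49 (SE 0.12, 95% interval −0.77 to −0.21, adjusted p 0.0312). It held in 2 of 7 fits without 1 sample and was lost without ZT20 replicate 1, 3 or 4 and without ZT8 replicate 1 or 3 (adjusted p up to 0.0944).

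Other DNAJC genes had sizeable differences of either sign without a call. Dnajc5, the cysteine-string protein that keeps the vesicle fusion machinery folded at nerve terminals, was 89.2, 67.0, 102 and 102 TPM at ZT20 and 72.2, 35.6 and 62.3 TPM at ZT8. ZT8 replicate 1 overlapped the ZT20 samples, and the log2 difference was 0.70 (95% interval 0.12 to 1.28, adjusted p 0.0901). It was 0.40 without ZT8 replicate 2 and 0.086 when corrected for length and GC content. Dnajc7, which passes clients between HSP70 and HSP90, was 286, 302, 283 and 301 TPM at ZT20 and 247, 208 and 266 TPM at ZT8, without overlap (0.29, adjusted p 0.108). Dnajc18, Dnajc21, which acts in ribosome assembly, and Dnajc9, a histone chaperone, also had separate groups and were named after their values were seen. Their log2 differences were 0.77 (adjusted p 0.0622), 0.76 (adjusted p 0.0723) and −0.42 (adjusted p 0.0722). Dnajc18 (adjusted p 0.0364) and Dnajc21 (adjusted p 0.0117) passed without ZT8 replicate 2, and Dnajc9 (adjusted p 0.0483) without ZT8 replicate 1. Corrected for length and GC content, Dnajc18 stood at 0.28, Dnajc21 at 0.67 and Dnajc9 at −0.39, without a call. Dnajc8, a splicing-associated J protein and among the most abundant of the family, was 188 to 196 TPM at ZT20 and 172 to 232 TPM at ZT8 (−0.089, adjusted p 0.636).

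**Figure D4:**
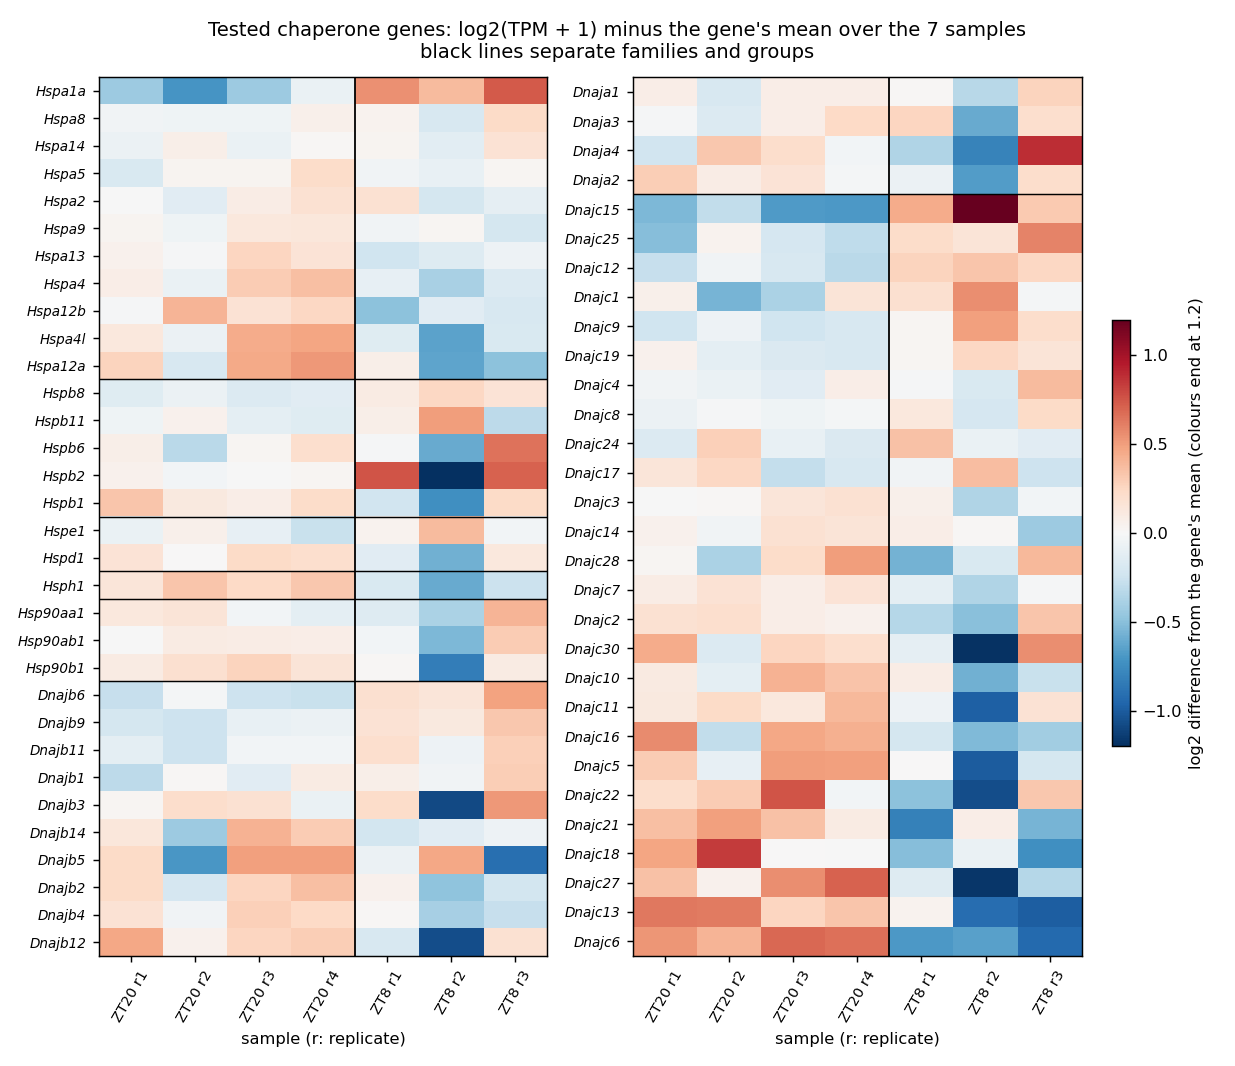
Each cell is log2(TPM + 1) minus the gene's mean over the 7 samples, red above and blue below, for the 62 tested chaperone genes (rows, by family) and the samples (columns). The column of ZT8 replicate 2 holds the lowest value in 34 of the 62 genes.

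By site of action, the shares called were 18.2% of the stress-inducible set, 0% of the endoplasmic reticulum set, 12.5% of the mitochondrial set and 20% of the vesicle set, against 16.4% of all tested genes. With so few genes a set, 1 or 2 calls make up each share above 0. The medians of the first 3 sets were positive in TPM and turned negative with median-ratio scaling (−0.17, −0.025 and −0.14). Corrected for length and GC content they were −0.11, −0.23 and −0.064. Of 11 tested stress-inducible genes (12 with Hspa1b), Hsph1 was higher and Hspa1a lower at ZT20, and the other 9, Hspb1, Hsp90aa1, Dnajb1 and Hspd1 among them, did not pass the test. The median of this set was 0.076. Of 10 genes of the endoplasmic reticulum, 0 were called by limma, with a median of 0.22. At an unadjusted p under 0.05 there was 1, Dnajb9, against 5122 of 14800 over all tested genes. Those not yet described were Dnajb12 (0.62, adjusted p 0.185) and Dnajb14 (0.24), membrane J proteins that send misfolded proteins to degradation, Dnajc10 (0.44), a disulfide reductase, Dnajc3 (0.19), the inhibitor of the kinase Perk, and Dnajc1 (−0.42, adjusted p 0.228), which was called lower after the length and GC correction (−0.96, adjusted p 0.0407). Of 8 mitochondrial genes, Dnajc15 was lower and 0 were higher, with a median of 0.11. Their summed level was 871.12 to 895.63 TPM at ZT20 and 938.3 to 1062.8 TPM at ZT8, without overlap. Without Dnajc15 the sums were 766.06 to 815.39 TPM at ZT20 and 707.81 to 805.26 TPM at ZT8 and overlapped. Dnajc19, of the import motor, stood at −0.25 (adjusted p 0.176), Dnajc11, of the inner membrane contact complex, at 0.50 and Dnajc30 at 0.43. Of 5 genes listed as a synaptic vesicle and clathrin uncoating set, Dnajc6 was higher. The set median was 0.62 in TPM and 0.37 with median-ratio scaling, in both cases the value of Hspa12a. Corrected for length and GC content it was 0.066, the value of Dnajb2. Neither of these 2 genes is described above as acting on vesicles. In this set Dnajc5, Dnajb2 and Hspa12a had positive point estimates and Hspa8 a negative one.

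Regulators, co-chaperones and relatives with other symbols were followed as a list of 45 genes, of which 43 were tested and 9 changed, 5 higher and 4 lower at ZT20 (20.9%, against 16.4% of all tested genes). The median log2 difference was 0.060. Hsf1, the master factor of the heat shock response, was 37.8, 23.1, 34.1 and 33.4 TPM at ZT20 and 25.5, 10.7 and 20.4 TPM at ZT8, overlapping through ZT20 replicate 2 (0.80, adjusted p 0.0920, and 0.45 without ZT8 replicate 2). Hsf2 stood at 0.69 (adjusted p 0.203), and at 0.25 without ZT8 replicate 3.

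Of 26 heat shock factors and co-chaperones, St13, Bag3 and Ahsa2 were higher and Grpel1 lower, 4 calls where 16.4% of all tested genes were called. St13 (Hip), which stabilises the client-bound state of HSP70, was 154, 262, 149 and 136 TPM at ZT20 and 79.3, 91.6 and 75.5 TPM at ZT8 (1.04, adjusted p 0.0187). Bag3, the HSP70 partner of autophagy, was 232, 196, 253 and 277 TPM at ZT20 and 175, 90.4 and 161 TPM at ZT8 (0.80, adjusted p 0.0486). Both genes were separate between the groups. Their call was lost with median-ratio scaling, and without ZT8 replicate 2 Bag3 stood at 0.50. Ahsa2, a relative of the HSP90 activator Ahsa1, stood at 0.44 (adjusted p 0.0437). Grpel1, which releases nucleotide from Hspa9, was 46.3 to 53.3 TPM at ZT20 and 64.9 to 96.6 TPM at ZT8 (−0.66, adjusted p 0.0251). When 1 sample was left out, St13 stayed called in 5 of 7 fits, Grpel1 in 4, Bag3 in 2 and Ahsa2 in 1.

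Relatives of the families under other symbols included Sec63, called higher at ZT20, and Cryab, called lower. Sec63, the J protein of the translocon, was 19.4, 25.5, 17.1 and 18.8 TPM at ZT20 and 6.62, 11.7 and 5.90 TPM at ZT8 (1.26, adjusted p 0.0148). Its groups were separate. The call was lost with quantile normalization, with the marker score as covariate and after the correction for length and GC content. Cryab (αB-crystallin), a small heat shock protein abundant in glia, was 223, 278, 237 and 286 TPM at ZT20 and 354, 318 and 371 TPM at ZT8 (−0.45, adjusted p 0.0456). Of 8 subunits of TRiC, the cytosolic chaperonin for actin and tubulin, Cct4 (−0.43, adjusted p 0.0360) and Cct5 (−0.45, adjusted p 0.0290) were lower and 0 higher, with a median of −0.16, where 3.61% of all tested genes were lower. When 1 sample was left out, Sec63 stayed called in all 7 fits, Cct5 in 3, Cct4 in 1 and Cryab in 1.

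**Figure D5:**
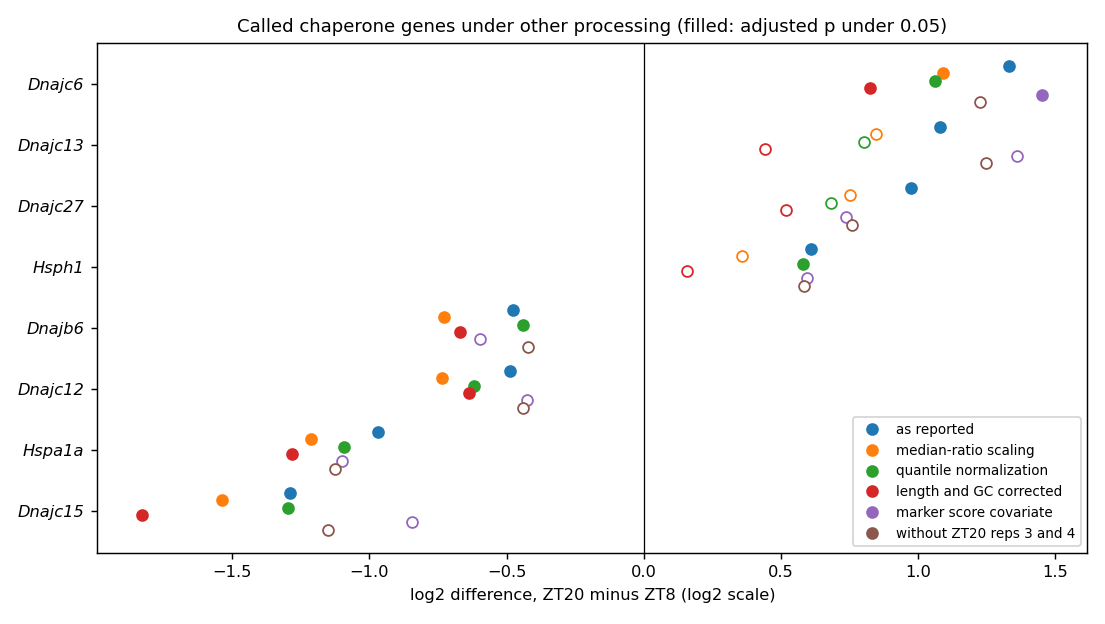
Log2 difference, ZT20 minus ZT8 (x axis), of the 8 called chaperone genes as reported and under 5 of the alternatives (colours), filled where the limma adjusted p was under 0.05. Signs hold throughout, and no point without ZT20 replicates 3 and 4 is filled.

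The 8 members below 1 TPM on average and so not tested were Hspa1b, Hspa1l, Hspb3, Hspb7, Hspb9, Dnajb7, Dnajb8 and Dnajb13. Several are known from testis, muscle or ciliated cells, and Dnajb8 was listed at 0 in all 7 samples. Near copies could take reads from the expressed members. The table held 16 pseudogenes named after a member, and the highest of them, Hspe1-ps2, had a mean of 0.205 TPM. By GENCODE M21, 27 of the 70 members share exonic bases with another gene, and their values are uncertain where the counting could split reads.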

How the data were processed

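Neuron-enriched lumbar ganglia of 4 ZT20 and 3 ZT8 samples were sequenced, with a kit for small amounts of total RNA. The authors deposited transcript abundance per gene as TPM, scaled to 1 sum in each sample. The submitters' processing notes name FastQC 0.11.9, Trim Galore 0.6.6, Salmon 1.6.0, DESeq2 1.34.0 and GRCm39, without saying which step made the table. Whole reads could not be recovered from TPM and depth is unknown, so no count test, counting interval or floor is given; the 95% intervals are those of the limma fit. The table's 7 columns were matched by name and 0 were unused. Values were tested as log2(TPM + 1) with limma 3.58.1 (R 4.3.3, two-sided, intensity trend, Benjamini-Hochberg) over all 7 samples without covariates, for the 14800 of 54309 genes that averaged 1 TPM or more. A log2 difference on this scale understates the change of low genes. The fit was checked on simulated data.

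Members, lists and alternatives were chosen with earlier results of these data known. Named with values were all called members, the 3 most abundant of each family and the fixed sets; Hspa4l, Dnajc18, Dnajc9 and Dnajc21 were added after their values were seen. Transcript lengths, GC content and exon overlap came from GENCODE M21 (GRCm38), matched by identifier. Length and GC content were those of the longest annotated transcript of each gene, known for 14745 tested genes. The transcript expressed may be another, and the length behind each TPM value is not known. The loess correction for both used a span of 0.3. Promoters came from RefSeq (GRCm38.p6), whose build differs from that of the notes, and the table holds no coordinates. The alternatives were median-ratio and quantile scaling, a pseudocount of 0.1, a filter at 5 TPM or none, a replicate block, the marker score, no trend, array weights, the length and GC correction, a threshold of 0.10, each sample left out, and, chosen after seeing the data, ZT20 replicates 3 and 4 left out. Tables and figures used pandas 2.3.3 and matplotlib 3.10.9 in Python 3.11.15. Some genes of the related and marker lists are counted in those lists but not reported here.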

Additional observations from a re-analysis of the deposited data

Results flagged for a closer look

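Among 55 genes examined at ZT20, 6 had a sample far from the other 3, where chance gives about 1 in 20 (2.75). The gap of the far sample, as a share of the group's range, exceeded Dixon's 95% critical value for 4 samples. Replicate 2 was the far sample in Dnaja1 (353 TPM against 428 in the others, share 0.993), Dnajb6 (260 TPM, above the others, share 0.907) and St13 (262 TPM, above the others, share 0.855). Replicate 1 was the far sample, on the low side, in Hsp90ab1 (1936 TPM, share 0.865) and Cct4 (174 TPM, share 0.860). Replicate 4 was the far sample, on the high side, in Hspa8 (4961 TPM, share 0.899). ZT8, with 3 samples, was not examined in this way.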

How the results depend on the processing

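Calls over all genes and over the members (62 tested, or 69 without the filter) depended on the samples and on the scaling. The counts were 2433 genes and 8 members, 4 higher and 4 lower. Leaving out 1 sample gave 624 to 3055 genes and 2 to 10 members (1 to 5 higher, 1 to 6 lower). Without ZT20 replicates 3 and 4 limma called 0 genes, 0 members, 0 higher and 0 lower. The marker score gave 136 genes and 1 member, 1 higher and 0 lower. A threshold of 0.10 gave 4079 genes and 16 members (9 higher, 7 lower), and array weights 3899 and 14 (8 higher). No filter gave 1178 genes and 5 members (2 lower, Hspa1l among the higher), no trend 5 members (2 lower), and the length and GC correction 1319 genes with 1 higher and 5 lower members. By median-ratio scaling the members called were 1 higher and 9 lower. Quantile normalization called 2 higher and 5 lower members.

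Same-numbered samples had deviations that correlated at −0.0141, 0.153 and 0.083, and ZT8 replicate 1 correlated best with ZT20 replicate 3, so the numbers were not taken to pair samples. With the replicate block 1174 genes and 5 members (2 lower) were called: Hsph1, Dnajb6, Dnajc12 and Dnajc27 lost their call and Dnajc18 gained one. Hspa5 stood at −0.0039.

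Over 55 genes and the settings other than leaving out 1 sample, 465 results kept direction and side of the threshold, 86 lost the call, 14 gained it and 38 changed sign; leaving out 1 sample gave 312, 58, 7 and 8. No called gene changed sign. Array weights gave Hsp90ab1 −0.0027, Hsp90aa1 −0.067, Dnaja1 −0.040 and Dnaja3 −0.092. Without ZT20 replicates 3 and 4, Hspa5 was −0.039, Dnaja1 −0.041, Dnaja3 −0.039 and Dnajb14 −0.012. The length and GC correction gave Hspa5 −0.21, Hspa9 −0.032, Hspa4l −0.044, Hspa13 −0.029, Hsp90aa1 −0.11, Dnaja1 −0.43, Dnaja3 −0.058, Dnajb4 −0.021, Dnajb14 −0.41, Dnajc11 −0.071 and Dnajc3 −0.25. The marker score gave Hspb1 −0.021, Hspb11 0.22, Hsp90ab1 −0.18, Hsp90aa1 −0.34, Dnaja1 −0.30, Dnaja3 −0.15, Dnaja2 −0.16 and Dnajc30 −0.47. Median-ratio scaling gave Hspa5 −0.19, Hspa9 −0.11, Hsp90ab1 −0.10, Hsp90aa1 −0.17, Dnaja1 −0.22, Dnaja3 −0.16 and Dnajc3 −0.050. Quantile normalization gave Hspa13 −0.051, Dnajb14 −0.0083 and Dnajc3 −0.015. Leaving out 1 sample gave ranges across 0 for Hspa5 (−0.0039 to 0.13), Hspa8 (−0.16 to 0.056), Hspb11 (−0.35 to 0.055), Hsp90ab1 (−0.076 to 0.35), Hsp90aa1 (−0.092 to 0.30), Dnaja1 (−0.13 to 0.17), Dnaja3 (−0.19 to 0.24) and Dnajc30 (−0.037 to 0.83). The cause of these shifts was not tested. A count test was not run, because TPM keeps no depth.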
